A study of Mus musculus with 9 samples.

Results

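CpG methylation at promoter regions of heart and cell cycle genes was compared between embryonic mouse cardiomyocytes given siRNA against DNMT3a and cells given a negative control siRNA. The comparison rests on 6 of the 9 libraries of the series, 3 for each siRNA, and 3 libraries of DNMT3b siRNA served for the shared estimate of spread and as an outside sorting of CpGs by level. Of 355 CpGs listed in 30 regions, 310 in 26 regions had at least 30 reads in all 9 libraries and were used. The cells came from ventricles of CD-1 embryos at embryonic day 13.5, with the ventricles of a litter pooled, and were cultured for 48 h. All groups then received 0.012 pmol of siRNA with lipofectamine RNAiMAX, and cells positive for the surface protein VCAM1 were sorted magnetically 72 h later. The DNMT3a siRNA was a mix of 4 siRNAs (Qiagen FlexiTube), and the control was AllStars negative siRNA. Bisulfite-treated DNA was amplified for 2 regions of each of 15 genes, tagmented and sequenced on a MiSeq. Bisulfite turns unmethylated cytosine into uracil, which is read as T, so the percent of reads with C at a CpG is its methylation level.

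DNMT3A and DNMT3B are the de novo DNA methyltransferases, which add methyl groups to CpGs that carry none, whereas DNMT1 copies existing methylation to the new strand when DNA is replicated. In most mammalian tissues, CpG-rich promoters are unmethylated, while CpG-poor promoters of tissue-specific genes carry variable methylation. The sampled genes encode contractile proteins of the sarcomere, natriuretic peptides released by stressed heart muscle, inhibitors of cyclin-dependent kinases, and transcription factors of the MEF2 and CAMTA families. The comparison asked where methylation differs when DNMT3a is targeted. No amplicon covered Dnmt3a, so how far it was depleted was not analysed here, and no cell type marker can be read from these amplicons.

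Library totals ran from 28535010 to 32543683 cytosine calls, and the median CpG was covered by 6610.5 to 8434.5 reads per library. Coverage of single CpGs ranged from 35 to 86977 reads. The reads are PCR products with no molecular identifiers, so depth bounds counting error only. Outside CpG, 0.198%, 0.180% and 0.217% of reads carried C in negative siRNA replicates 1 to 3, and 0.224%, 0.229% and 0.175% in DNMT3a siRNA replicates 1 to 3. Further triplets of values follow this replicate order, and levels are given as mean ± SD with n = 3 libraries. Nothing in the labels says that the replicates came from separate litters or cultures, so p-values measure the spread between these samples, which may be technical. DNMT3a siRNA replicate 2 stood apart from the other DNMT3a libraries, with a mean over regions of 38.0% against 34.8% and 34.7%. Negative libraries were at 37.2%, 35.9% and 37.5%, so this DNMT3a library lay just above their range. It was the highest of the 3 DNMT3a libraries in 20 of 26 regions and at 202 of 310 CpGs.

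The files give offsets within each amplicon and the 3 letters at each cytosine, but no coordinates. These letters matched RefSeq promoter windows of GRCm38.p6, the NCBI form of mm10, for 12 of 30 regions, 11 of them with reads. The regions of Tnnt2, Mef2d and Nppb and the first of Myh7 were among the 18 that were not placed. Distances below are from the annotated start site. Myh7_2 spans chr14:54994618-54994962, from 336 bases before the start site of Myh7 to 8 after it. Myh7b_2 spans chr2:155610702-155611138, upstream of Myh7b. NPPA_1 spans chr4:148000521-148000962, from 201 bases before to 240 after the start site of Nppa, and Camta2_1 spans chr11:70687869-70688297 across the start of Camta2. Tnnc1_2 lies at chr14:31206937-31207341, 1375 to 971 bases before Tnnc1.

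The upstream parts of 4 placed regions are printed because they hold the CpG of the Myh7_2 difference, the CpG of the Myh7b_2 difference, the proximal Nppa promoter, where mean levels were higher, and part of the nearly unmethylated Camta2 promoter. They are RefSeq sequence on the strand of the gene, 5′ to 3′, with tested CpGs in capitals. The Myh7_2 stretch is chr14:54994627-54994876 on the minus strand, the Myh7b_2 stretch chr2:155610993-155611139 on the plus strand, the NPPA_1 stretch chr4:148000521-148000721 on the plus strand and the Camta2_1 stretch chr11:70688146-70688297 on the minus strand. The last CpG of the Myh7_2 stretch had at most 1 read in each library and stays in lower case.
Myh7_2: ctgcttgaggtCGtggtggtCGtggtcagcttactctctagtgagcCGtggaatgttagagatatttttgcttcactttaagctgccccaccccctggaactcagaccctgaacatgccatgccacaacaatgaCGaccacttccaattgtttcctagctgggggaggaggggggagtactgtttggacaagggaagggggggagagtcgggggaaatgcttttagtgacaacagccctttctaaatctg
Myh7b_2: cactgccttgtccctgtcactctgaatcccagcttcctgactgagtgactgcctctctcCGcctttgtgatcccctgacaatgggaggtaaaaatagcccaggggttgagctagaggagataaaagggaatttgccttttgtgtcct
NPPA_1: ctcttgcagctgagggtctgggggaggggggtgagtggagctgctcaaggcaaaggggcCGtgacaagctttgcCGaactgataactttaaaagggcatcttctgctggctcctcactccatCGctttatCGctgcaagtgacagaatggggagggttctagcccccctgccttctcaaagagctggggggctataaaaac
Camta2_1: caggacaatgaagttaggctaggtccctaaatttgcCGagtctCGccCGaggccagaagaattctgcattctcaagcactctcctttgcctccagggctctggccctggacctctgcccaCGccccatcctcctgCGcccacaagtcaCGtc

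For regions that were not placed, the deposited cytosine contexts give part of the sequence around 3 CpGs at which the groups did not overlap. Bases that the files do not list are written n, and the CpG is in capitals.
Tnnt2_1 offset 94: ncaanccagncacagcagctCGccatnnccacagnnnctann
Tnnt2_2 offset 209: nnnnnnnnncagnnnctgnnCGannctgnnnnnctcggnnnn
Mef2d_2 offset 304: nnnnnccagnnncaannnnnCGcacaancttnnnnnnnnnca

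The placed windows of 300 bases differed in CpG content. Those matched by Camta2_1 and Cdkn1B_1, both nearly unmethylated regions, held 19 and 30 CpGs. This was more than 71.9% and 88.3% of the 32851 promoter windows searched. The windows matched by the other placed regions of target genes held 1 to 6. Cdkn1B_1 shares only 47 bases with its window, so that CpG count describes mostly bases outside the amplicon. Cdkn1C_1, with 55 CpGs listed in its amplicon, was not placed and stood at 23.2% in negative siRNA.

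No region and no CpG passed the edgeR test after adjustment (0 of 26 and 0 of 310, or 0.0% of each). Unadjusted p-values under 0.05 were found for 3 regions (11.5%), all lower with DNMT3a siRNA, and for 36 CpGs (11.6%), 22 lower (7.1%) and 14 higher (4.52%). limma called 0 sites and 0 regions, whereas DESeq2 called 4 sites and 3 regions, all lower. DESeq2 used its default filter before adjustment, so its CpG p-values were adjusted over fewer CpGs than those of edgeR and limma. Mean levels were lower with DNMT3a siRNA in 17 of 26 regions (65.4%), and in 23 (88.5%) when DNMT3a siRNA replicate 2 was left out. Of the CpGs, 188 (60.6%) were lower in mean, or 227 (73.2%) without that library. Averaged over regions, the difference was -1.06 points, with p = 0.40 by an exact two-sided permutation test of 3 against 3 libraries, which cannot go below 0.10. It was -2.12 points when the same library was left out, and -1.52 to -0.49 points when any other single library was. Counts of lower regions and CpGs were not made for those other omissions. The 6 libraries did not overlap between groups in 6 regions (23.1%). Of these, 5 were lower with DNMT3a siRNA (Tnnt2_2, Myh7b_2, Mef2d_2, Myh6_2 and Tnnc1_2), and Camta2_1 was higher (19.2% and 3.85% of regions).

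**Figure D1:**
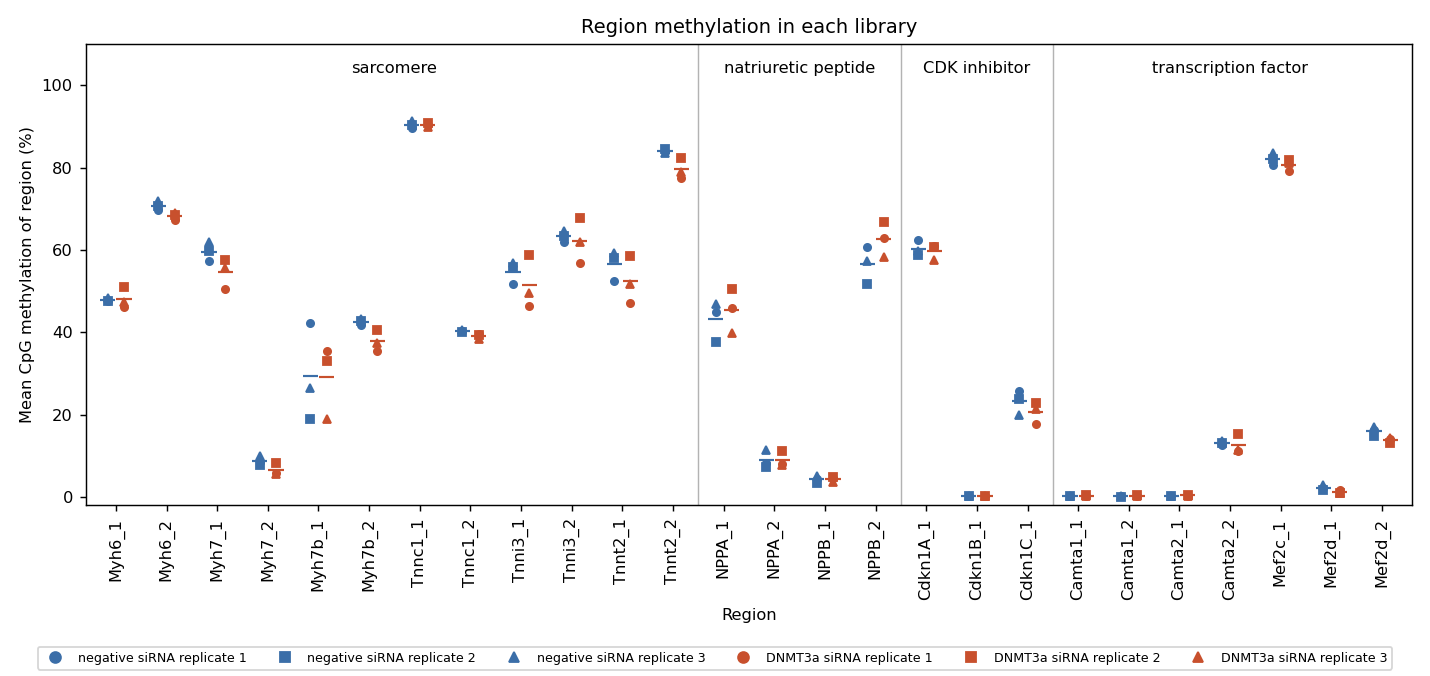
Mean CpG methylation (%) of each of the 26 regions, ordered by gene group; each point is 1 library, with shape for the replicate and colour for the siRNA, and bars are group means. DNMT3a siRNA replicate 2 (orange squares) is the highest DNMT3a library in 20 regions, and Tnnt2_2, Myh7b_2, Mef2d_2, Myh6_2 and Tnnc1_2 have all DNMT3a points below the negative ones.

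Cardiac troponin T, encoded by Tnnt2 on chromosome 1, anchors the troponin complex to tropomyosin. Its second region stood at 83.8%, 84.4% and 83.5% in negative siRNA and at 77.5%, 82.4% and 79.0% in DNMT3a siRNA. All DNMT3a libraries were below all negative ones, and the log2 odds ratio was -0.45 ± 0.13 SE (edgeR adjusted p = 0.117). All 9 of its CpGs were lower in mean, by 1.95 to 7.59 points, and the groups did not overlap at 5 of them (offsets 165, 209, 233, 263 and 288). Non-overlap in this direction was found at 33 of the 310 CpGs (10.6%). At offset 209 the levels were 82.9%, 84.8% and 82.7% against 75.2%, 77.4% and 77.8%. At offset 233 they were 81.5%, 82.4% and 80.9% against 69.7%, 78.4% and 73.9%. Replicate 2 of DNMT3a siRNA lay closest to the negative libraries at offset 233 but in the middle of its group at offset 209.

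The first Tnnt2 region was less uniform. Its level was 52.4%, 58.1% and 59.2% in negative siRNA and 47.0%, 58.6% and 51.8% in DNMT3a siRNA, so the groups overlapped. The difference of -4.13 points was -1.42 when DNMT3a siRNA replicate 1 was left out, -7.18 when replicate 2 was, and -6.21 when negative siRNA replicate 1 was. All 6 CpGs were lower in mean, but the groups were apart at a single one, offset 94. There methylation was 91.3%, 92.2% and 90.9% against 84.5%, 82.2% and 86.3%, with 9406 to 13152 reads per library. This was the smallest p among all CpGs, with a log2 odds ratio of -0.99 ± 0.18 SE (edgeR adjusted p = 0.130). It is also a CpG at which DNMT3a siRNA replicate 2 was the lowest library of its group. The CpG at offset 195 ranged from 30.4% to 77.1% over the 6 libraries, and its group means of 57.6% ± 21.2 and 49.4% ± 18.0 differed by less than their spread.

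Troponin C, the calcium-binding subunit encoded by Tnnc1, had 1 region of high and 1 of mixed methylation. Tnnc1_1, near full methylation, was at 90.5% ± 0.80 and 90.3% ± 0.46. Tnnc1_2 was at 40.3%, 40.01% and 40.6% against 39.5%, 39.3% and 38.3%, a difference of -1.26 points without overlap (log2 odds ratio -0.09 ± 0.07 SE, edgeR adjusted p = 0.625). Its 9 CpGs ran from 1.01% to 90.9% in negative siRNA, and those without overlap were the 3 most methylated. At offset 107 the levels were 71.2%, 68.8% and 71.9% against 68.2%, 63.9% and 65.0%. At offset 299 they were 89.9%, 91.0% and 91.7% against 87.7%, 89.0% and 88.3%. The third, at offset 272, differed by -2.18 points.

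Troponin I, the inhibitory subunit encoded by Tnni3, had regions whose differences rested on single libraries. Tnni3_1 was at 51.7%, 55.8% and 56.9% against 46.5%, 58.7% and 49.5%, and all 7 CpGs were lower in mean. DNMT3a siRNA replicate 2 was the highest of the 6 libraries, and the difference of -3.19 points was -6.78 without it, or -0.64 with DNMT3a siRNA replicate 1 left out. Tnni3_2 was at 61.9%, 63.4% and 64.6% against 56.8%, 67.7% and 62.0%, with overlap. Its difference of -1.17 points became -3.94 and 1.52 when DNMT3a siRNA replicates 2 and 1 were left out in turn.

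Myosin heavy chains are the motors of contraction. Myh6 and Myh7 hold the genes of the alpha and beta cardiac forms, and Myh7b that of a related chain. In Myh7_1 methylation was 57.2%, 59.7% and 61.9% in negative siRNA and 50.5%, 57.7% and 55.7% in DNMT3a siRNA. The difference of -5.00 points was -2.94 when DNMT3a siRNA replicate 1 was left out. The largest drop among non-overlapping CpGs was in this region, at offset 127, with 56.1%, 62.2% and 61.9% against 45.2%, 53.3% and 51.8% (log2 odds ratio -0.58 ± 0.19 SE, edgeR adjusted p = 0.359). Offsets 102 and 118 beside it were lower by 6.34 and 6.89 points, also without overlap. All 9 CpGs of the amplicon were lower in mean, and the 6 outside this stretch overlapped between groups.

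Myh7_2 covers the proximal promoter of Myh7 and was sparsely methylated, at 8.47%, 7.80% and 10.0% against 5.93%, 8.34% and 5.61%. Its 4 tested CpGs lie 239, 230, 204 and 116 bases upstream of the start site, at offsets 102, 111, 137 and 225. Negative siRNA means increased along them, from 4.48% to 7.46%, 10.3% and 12.8%, and the differences were 0.0091, -0.98, -2.77 and -4.76 points. Only the CpG nearest the start site, at position 54994742, was without overlap among these 4: 12.5%, 11.9% and 14.03% against 8.07%, 8.55% and 7.56%. Its log2 odds ratio was -0.74 ± 0.16 SE (edgeR adjusted p = 0.174, 5311 to 6994 reads). In the RefSeq window, CATTCC, the motif of TEA-domain factors, occurs on the opposite strand with its first base 201 upstream, beside the CpG at 204. GATA occurs at 190 upstream, and the E-box CANNTG at 106 upstream and 15 downstream. These motifs were searched on both strands, do not overlap one another, and occur in 14.7%, 57.9% and 72.3% of the 32851 windows.

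Myh7b_2 was at 41.8%, 42.8% and 43.3% against 35.5%, 40.5% and 37.4%, without overlap, with a log2 odds ratio of -0.33 ± 0.10 SE (edgeR adjusted p = 0.117). All 4 of its CpGs were lower in mean, and the one nearest the gene, 191 bases upstream at position 155611052, carried the largest difference. It was at 39.8%, 45.9% and 44.6% against 27.9%, 37.5% and 35.3%, a difference of -9.86 points. The remaining 3 CpGs differed by -4.15, -2.14 and -3.08 points with overlap. Myh7b_1, across the start site, had the widest spread of any region. Its levels were 42.4%, 19.1% and 26.5% against 35.4%, 33.0% and 18.9%. Within negative siRNA alone, offset 145 ranged from 13.7% to 67.0% and offset 161 from 41.1% to 57.5%. The region's difference of -0.21 points varied from -5.32 to 6.33 points as single libraries were left out.

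In Myh6_2 the groups were apart at every CpG tested, but by small amounts. The region was at 69.7%, 70.6% and 71.8% against 67.2%, 68.5% and 69.0%, and its 3 CpGs differed by -1.27, -3.27 and -2.91 points (region log2 odds ratio -0.19 ± 0.10 SE, edgeR adjusted p = 0.358). Myh6_1 was at 47.8% ± 0.41 and 48.1% ± 2.50 and was the 1 sarcomere region of 12 that was higher in mean. Without DNMT3a siRNA replicate 2 its difference of 0.32 points became -1.09.

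Among the 71 sarcomere CpGs, 61 were lower in mean, with a median difference of -2.34 points. The median was -0.09 over all 310 CpGs and -1.83 over the 177 with a negative siRNA mean of at least 2%, the range in which all but 2 sarcomere CpGs lay. The groups did not overlap at 18 of the 71, all lower, against 33 lower of 310 (10.6%) overall and 28 lower of the 177. The group mean was 53.9%, 53.3% and 54.8% against 49.8%, 54.7% and 50.4%, so DNMT3a siRNA replicate 2 lay within the negative range while the other DNMT3a libraries lay below it.

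**Figure D2:**
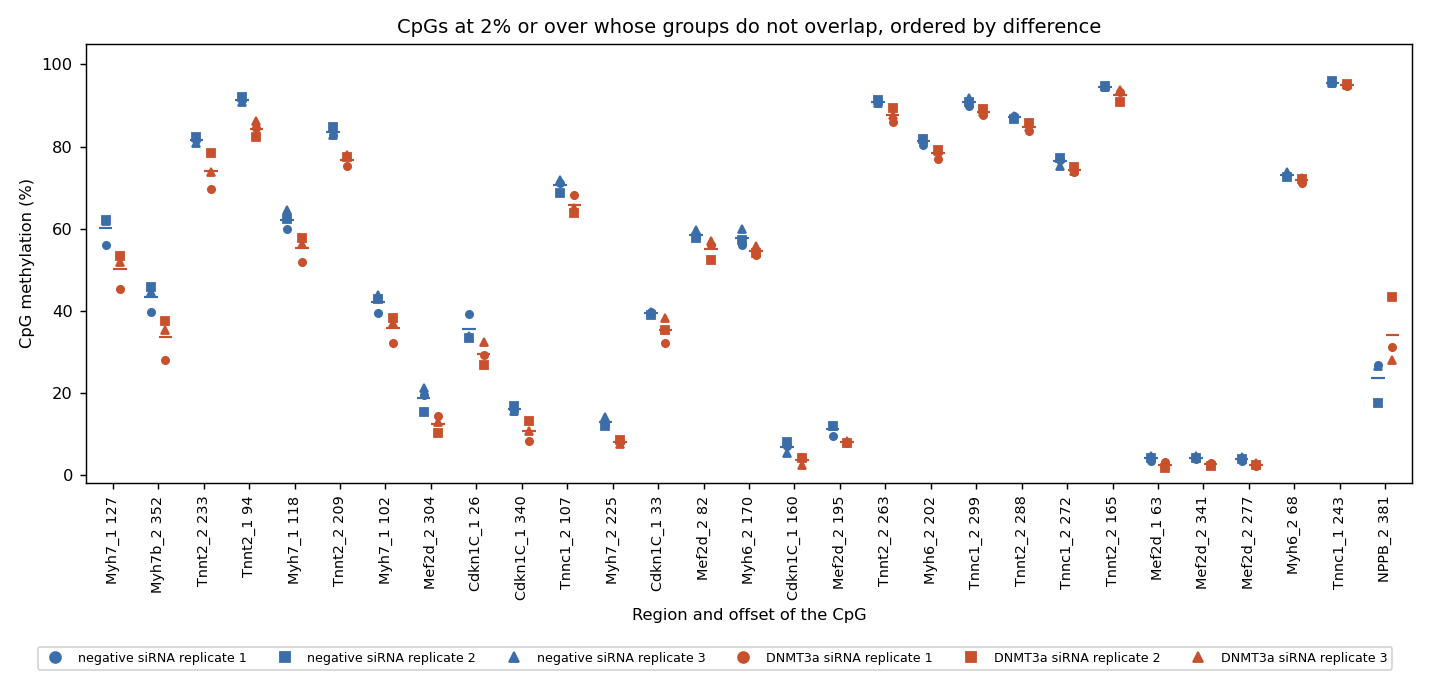
Methylation (%) of the 29 CpGs with a negative siRNA mean of at least 2% at which the groups do not overlap, ordered by difference; each point is 1 library and bars are group means. Levels are lower with DNMT3a siRNA at 28 of them, by 0.59 to 9.94 points, and higher at NPPB_2 offset 381 alone.

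The natriuretic peptide genes were higher in mean by 2.12 points as a group, at 29.6%, 25.0% and 30.2% against 30.3%, 33.4% and 27.4%. The group difference stayed positive with any single library left out, but its size depended on single libraries. With negative siRNA replicate 2 left out the group difference was 0.51 points, and with DNMT3a siRNA replicate 3 left out 3.63 points. With DNMT3a siRNA replicate 2 left out it was 0.61 points, and 3 of the 4 regions and 20 of the 33 CpGs were lower, with a median of -0.11 points. Nppa and Nppb encode the atrial and B-type peptides, hormones that lower blood volume and pressure. NPPB_2 was at 60.7%, 51.7% and 57.2% in negative siRNA and at 62.8%, 66.9% and 58.2% in DNMT3a siRNA, a difference of 6.08 points with overlap (log2 odds ratio 0.29 ± 0.17 SE, edgeR adjusted p = 0.363). It was 3.66 points when negative siRNA replicate 2 was left out and 3.97 points when DNMT3a siRNA replicate 2 was. The higher levels lay at one end of the amplicon. The CpGs at offsets 51 and 238 differed by -1.44 and -0.55 points, and those at 312, 328, 341 and 381 by 4.27, 11.6, 12.1 and 10.5 points. Offset 381 was the only CpG of NPPB_2 without overlap, at 26.8%, 17.6% and 26.5% against 31.2%, 43.3% and 27.9%. Non-overlap in the higher direction was found at 14 of 310 CpGs (4.52%), and this was the only one of them with a negative siRNA mean of 2% or more. DNMT3a siRNA replicate 2 was the highest library at offsets 312 to 381, and negative siRNA replicate 2 the lowest. At offset 381 the DNMT3b siRNA libraries stood at 21.8%, 16.4% and 16.4%, and the difference between the siRNAs against DNMT3a and DNMT3b was not tested. Averaged over all regions, the DNMT3b siRNA libraries stood at 35.0%, 35.3% and 34.8%, below every negative siRNA library, as did DNMT3a siRNA replicates 1 and 3. Lower levels were thus not seen with DNMT3a siRNA alone.

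NPPA_1 was at 44.8%, 37.6% and 47.0% against 45.8%, 50.6% and 39.8%, with overlap. Methylation varied along this region: negative siRNA means were 9.97% and 11.9% at 142 and 127 bases upstream of the start site of Nppa, 40.8% and 34.8% at 79 and 71 bases upstream and 13.5% at 1 base upstream. Within the gene they were 37.9% at 29 bases and 90.5% at 201 bases downstream. The 8 CpGs from offset 62 to 303 were all higher in mean with DNMT3a siRNA, most of all offset 77, with 14.2%, 7.98% and 13.5% against 18.3%, 25.97% and 12.2%. Replicate 3 of DNMT3a siRNA lay within the negative range there. Without DNMT3a siRNA replicate 2, the region's difference of 2.26 points was -0.34. NPPA_2, further upstream, was at 8.95% ± 2.15 and 9.04% ± 1.95, and NPPB_1 at 4.32% ± 0.76 and 4.38% ± 0.71. At NPPA_2 offset 32, 1 library of each group stood far above the rest: 1.26%, 8.93% and 0.91% against 1.25%, 0.71% and 8.92%.

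CDK inhibitors hold cells in the first gap phase of the cell cycle, and Cdkn1c is imprinted, with its paternal copy silenced. Cdkn1C_1 held 52 tested CpGs, more than any other region, and was at 25.8%, 23.9% and 19.99% against 17.8%, 22.8% and 21.5%, with overlap (log2 odds ratio -0.22 ± 0.19 SE, edgeR adjusted p = 0.625). Lower means were found at 49 of its CpGs, including an unbroken run of 37 from offset 110 to 347. The groups were apart at 4 of them, offsets 26, 33, 160 and 340, a smaller share of the 52 than the 10.6% found over all CpGs. The region's difference of -2.54 points was -1.26 and -4.16 when negative siRNA replicates 1 and 3 were left out in turn, and -1.11 when DNMT3a siRNA replicate 1 was. At offset 340 the levels were 15.5%, 16.6% and 15.6% against 8.27%, 13.1% and 10.5%. Neighbouring CpGs of an amplicon share reads, so a run is not a count of independent measurements. The region of Cdkn1a (p21) was at 60.3% ± 1.86 and 59.8% ± 1.84, and that of Cdkn1b (p27) at 0.287% ± 0.0057 and 0.288% ± 0.054.

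MEF2 proteins are transcription factors of muscle gene programs. The Mef2c region was highly methylated, at 80.6%, 82.0% and 83.5% against 79.1%, 81.9% and 81.2%, with overlap. Mef2d_2 was at 16.3%, 14.8% and 16.9% against 14.2%, 13.1% and 14.3%, a difference of -2.16 points without overlap (log2 odds ratio -0.38 ± 0.12 SE, edgeR adjusted p = 0.117). In contrast to most regions, DNMT3a siRNA replicate 2 was the lowest of the 6 libraries here. Of its 10 CpGs, 9 were lower in mean and 6 were without overlap. At offset 195 the levels were 9.45%, 11.8% and 11.9% against 7.79%, 7.71% and 8.30%, and at offset 341 they were 3.76%, 4.05% and 4.50% against 2.76%, 2.08% and 2.71%.

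Letters of the cytosine contexts place a stretch of 127 bases at the start of Mef2d_1 on the end of Mef2d_2, so 4 tested CpGs were read in both amplicons. The printed stretch around Mef2d_2 offset 304 is the same as that around Mef2d_1 offset 26. This CpG was at 19.4%, 15.2% and 21.2% against 14.2%, 10.2% and 12.9% in Mef2d_2. In Mef2d_1, with only 78 to 124 reads, it was at 24.1%, 15.4% and 25.8% against 17.7%, 6.17% and 6.48%. The second shared CpG was at 4.10% ± 0.37 and 2.52% ± 0.38 in Mef2d_2 and at 3.98% ± 0.65 and 2.40% ± 0.69 in Mef2d_1. At both CpGs the 2 amplicons thus differed between siRNAs in the same direction. They come from the same DNA samples and are a repeat of the amplification, not of the experiment. The other shared CpGs, at offsets 74 and 77 of Mef2d_1, were at or below 1.28% in both amplicons. Over all its 17 CpGs Mef2d_1 was at 2.26%, 1.61% and 2.87% against 1.81%, 0.98% and 0.92%, and 16 CpGs were lower in mean. Its difference of -1.01 points rested largely on offset 26: it was -0.35 at a coverage minimum of 100, which leaves that CpG out, and -0.33 with reads pooled over the region.

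**Figure D3:**
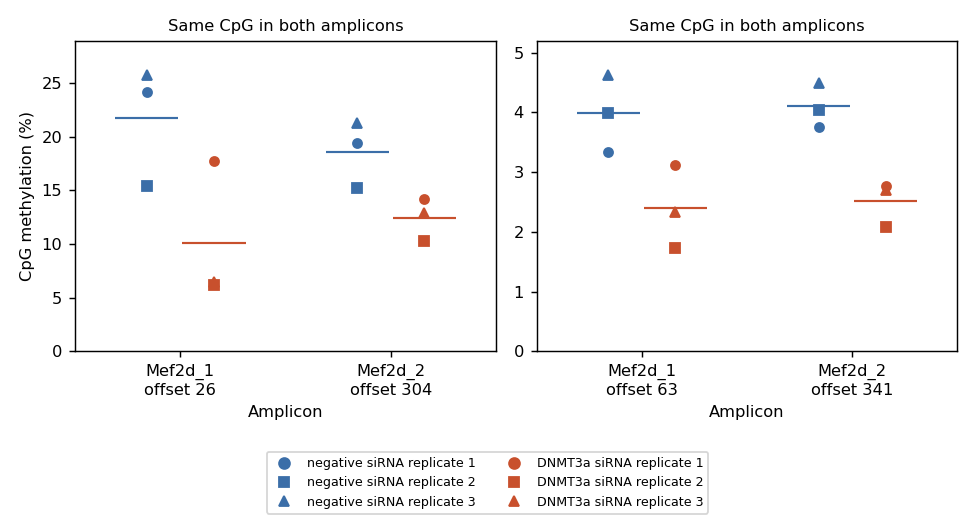
Methylation (%) of 2 CpGs of Mef2d that were each read in the amplicons Mef2d_1 and Mef2d_2; each point is 1 library and bars are group means. In Mef2d_2 all DNMT3a siRNA points lie below the negative ones at both CpGs, and at offset 26 of Mef2d_1, with 78 to 124 reads, the groups overlap.

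CAMTA proteins are calmodulin-binding transcription factors, and 3 of their 4 regions were nearly unmethylated. In Camta2_1 the level was 0.191%, 0.237% and 0.249% against 0.330%, 0.534% and 0.313%, without overlap and higher by 0.17 points (log2 odds ratio 0.79 ± 0.35 SE, edgeR adjusted p = 0.317), or by 0.096 points when DNMT3a siRNA replicate 2 was left out. The groups were apart at 11 of its 34 CpGs, 10 of them higher, beside 15.2% apart and 4.52% higher over all 310 CpGs. Among the 10 was offset 200, with 0.175%, 0.141% and 0.202% against 0.390%, 0.911% and 0.288%. This CpG lies 1 base past the start site of the matched window, and the annotated gene reaches further upstream, to position 70688145. Cytosines outside CpG in the same amplicon were higher as well. Their percent C was 0.184%, 0.190% and 0.177% against 0.253%, 0.437% and 0.243%, also without overlap. The part of incomplete conversion in this difference was not tested. In Camta1_1 the CpG level was 0.259%, 0.242% and 0.178% against 0.183%, 0.605% and 0.177%. The library with 0.605%, DNMT3a siRNA replicate 2, also had the highest percent C outside CpG there, 0.312% against 0.147% to 0.184% in the others. Camta1_2 was at 0.179% ± 0.058 and 0.333% ± 0.095, from as few as 35 reads per CpG. The fourth region, Camta2_2, was at 12.6%, 13.1% and 13.7% against 11.2%, 15.3% and 11.4%, with overlap.

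In Myh7_1, percent C outside CpG was 0.247% and 0.197% in mean, against a CpG difference of -5.00 points. Myh7_2, NPPA_1 and NPPB_2 also had lower percent C outside CpG without overlap between groups, the last 2 while their CpG means were higher. Of the 26 regions, all others overlapped outside CpG except Camta2_1, where DNMT3a siRNA was higher.

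Along the amplicons, all tested CpGs were lower in mean in 6 regions: Myh6_2 with 3 CpGs, Myh7_1 with 9, Myh7b_2 with 4, Tnni3_1 with 7, Tnnt2_1 with 6 and Tnnt2_2 with 9. The shape of the profile was shared by the groups in each of these amplicons except where single CpGs varied between libraries, such as Tnnt2_1 offset 195. Methylation of Tnnt2_1 decreased along the amplicon from 91.5% ± 0.65 at offset 94 to 11.6% ± 0.57 at offset 420 in negative siRNA, and from 84.3% ± 2.02 to 7.79% ± 3.21 in DNMT3a siRNA. In Mef2d_2, offset 82 was at 58.5% ± 1.06 and offset 352 at 0.80% ± 0.31, against 55.1% ± 2.39 and 0.81% ± 0.19. These are not its outer tested CpGs, which lie at offsets 50 and 355.

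**Figure D4:**
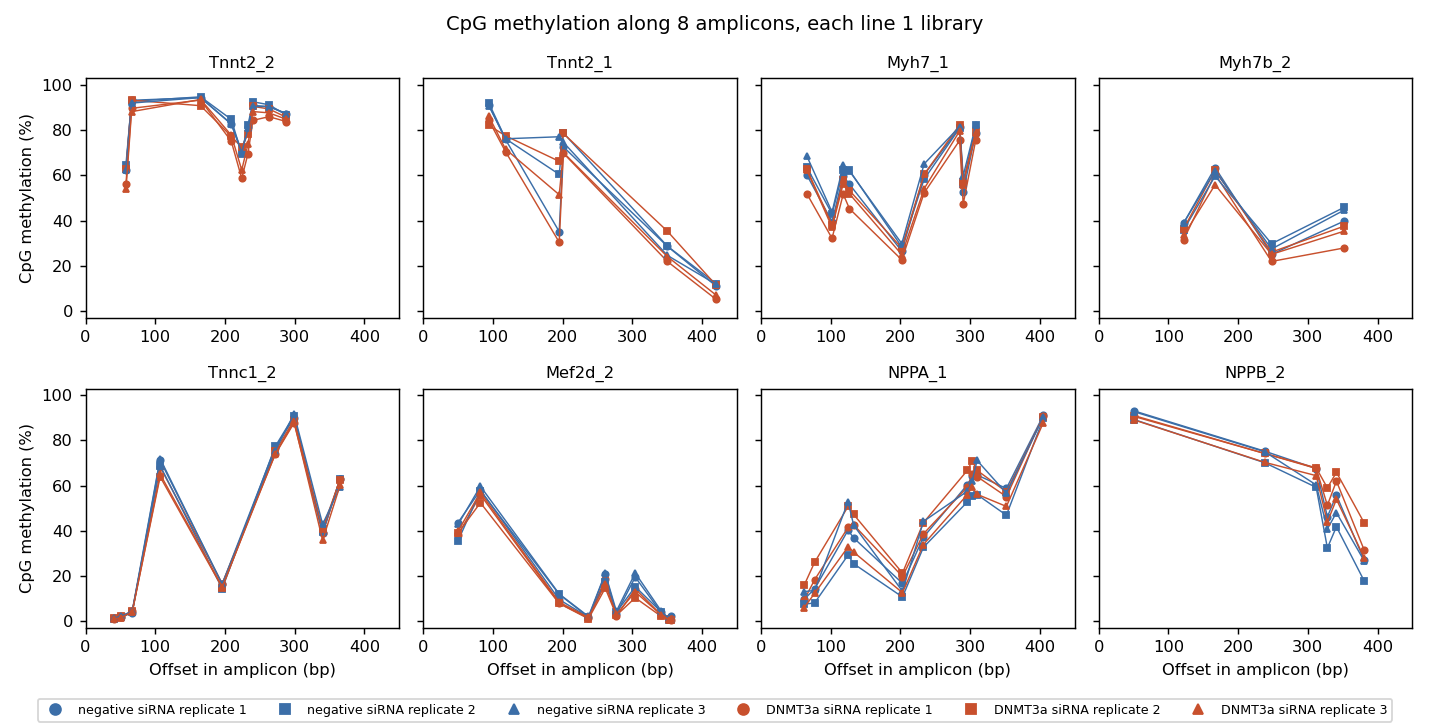
CpG methylation (%) against offset in the amplicon (bp) for 8 regions; each line is 1 library. Lines of both siRNAs follow the same profile, with DNMT3a siRNA lower at most CpGs of Tnnt2_2, Myh7_1 and Mef2d_2 and higher at the last 4 CpGs of NPPB_2, from offset 312 to 381.

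The share of lower CpGs differed between starting levels. Among the 177 CpGs with a negative siRNA mean of at least 2%, 137 were lower with DNMT3a siRNA, with a median difference of -1.83 points. Among the 133 under 2%, 51 were lower and the median was 0.02 points. Without DNMT3a siRNA replicate 2 these counts were 153 of 177 (median -2.84 points) and 74 of 133 (median -0.014 points), so the direction under 2% turned on that library. Between 2% and 20%, 41 of 55 CpGs were lower (median -1.31 points), between 20% and 80%, 74 of 98 (median -2.54 points), and at 80% and over, 22 of 24 (median -2.14 points). A group that sorts the CpGs also enters the difference, so the CpGs were sorted by the DNMT3b siRNA mean as well. The counts were then 52 of 134, 46 of 62, 72 of 94 and 18 of 20, with medians of 0.02, -1.45, -2.74 and -1.70 points.

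The classes differed in how the libraries lay. At 80% and over, the class mean was 88.5%, 88.6% and 88.9% in negative siRNA and 85.2%, 87.4% and 86.4% in DNMT3a siRNA, without overlap, and sorting by the DNMT3b mean also left the groups apart. Between 20% and 80% it was 47.5%, 45.7% and 46.6% against 42.3%, 48.2% and 43.6%, with DNMT3a siRNA replicate 2 as the highest of all. Between 2% and 20% it was 10.7%, 9.56% and 9.88% against 8.15%, 10.5% and 8.31%. Non-overlapping CpGs numbered 9 lower and 0 higher of 24 at 80% and over, and 11 and 1 of 98 between 20% and 80%. Between 2% and 20% there were 8 and 0 of 55, and under 2% 5 and 13 of 133. The lower share between 20% and 80% was close to the 10.6% over all 310 CpGs, where 4.52% were higher. Without Tnnt2_2, 4 of the 9 at 80% and over remained. Of the 13 higher ones under 2%, 10 were in Camta2_1.

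Single regions weigh on these classes. Of the 24 CpGs at 80% and over, 7 were in Tnnt2_2, and the class difference of -2.33 points was -1.67 without that region, still without overlap between groups. Cdkn1C_1 held 22 of the 55 CpGs between 2% and 20% and 30 of the 98 between 20% and 80%. Without it, 20 of 33 and 46 of 68 CpGs were lower, with medians of -0.28 and -1.88 points. The 3 largest positive differences were in NPPB_2. Over the 33 natriuretic peptide CpGs, 11 were lower in mean (median 0.32 points), or 20 without DNMT3a siRNA replicate 2 (median -0.11 points).

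**Figure D5:**
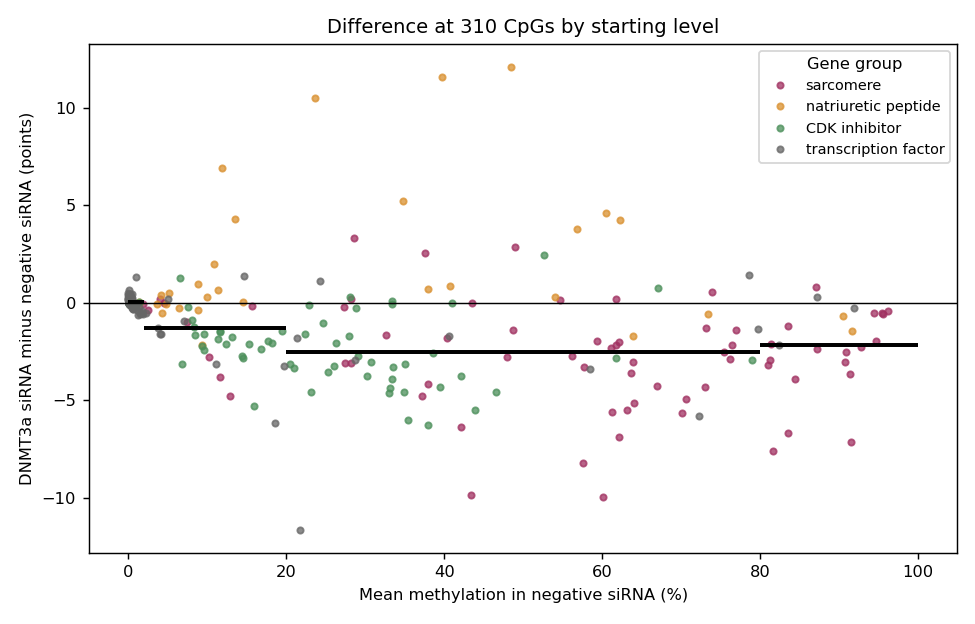
Difference in methylation (DNMT3a siRNA minus negative siRNA, percentage points) against the negative siRNA mean (%) for the 310 CpGs, coloured by gene group; black bars are the medians of the 4 starting-level classes. The bars lie at 0.02, -1.31, -2.54 and -2.14 points from left to right, and the highest points belong to natriuretic peptide genes.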

How the data were processed

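The members, gene groups and tests were chosen with earlier results of these data known. The submitters' processing notes name FastQC, Bismark and Bowtie2 and the build mm10, and their settings and versions are not given in the sources used here. Per the file headers, every deposited table gives a coverage count for every listed cytosine and what percent of its reads had C or T. Methylated counts were coverage times percent C, and all 23884 values came out whole within 0.01 reads. Region levels average the percent C of the CpGs with at least 30 reads in all 9 libraries.

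For tests, edgeR 4.0.16 (R 4.3.3) compared methylated and unmethylated counts (quasi-likelihood test, robust, 1 coefficient per library, all 9 libraries, no replicate block, two-sided), per CpG and summed per region. P-values were adjusted by Benjamini-Hochberg over all 310 CpGs or 26 regions, with calls at 0.05. Changes are log2 odds ratios with SE. The scripts were tested on simulated data. The mean over regions was compared by an exact permutation test. Gene groups, classes and profiles were described without tests. Regions in which 0 reads were listed (Cdkn1A_2, Cdkn1B_2, Cdkn1C_2 and Mef2c_2) were left out, as were 10 CpGs of other regions with too few reads.

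The naming rule took the 20 CpGs with the smallest p and the CpG with the largest difference in each region. Other CpGs, named for non-overlap or for their place in a profile, were chosen after their values were seen. Alternatives were limma 3.58.1 on log2((methylated + 2)/(unmethylated + 2)), DESeq2 1.42.0, coverage minimums of 10 and 100, the 6 compared libraries alone, a replicate block, CpGs between 2% and 98%, other class limits, pooled reads, equal weights for CpGs, and leaving out each library. Leaving out Cdkn1C_1 or Tnnt2_2 from the starting-level classes was chosen after seeing the data. Amplicons were placed where all listed letters matched a RefSeq promoter window over an overlap of at least 40 bases. The windows run from 250 bases before to 50 after a start site.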

Additional observations from a re-analysis of the deposited data

How the results depend on the processing

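Counts of calls depended on the tool and on 1 library. The count of called CpGs was 0 with edgeR and with limma, 4 with DESeq2 (Tnnt2_1 offset 94, Myh7_2 offset 225, Tnnt2_2 offset 209 and Mef2d_2 offset 195), and 2 when edgeR tested the CpGs between 2% and 98%, the first 2 of these. Called regions numbered 3 with DESeq2 (Mef2d_2, Myh7b_2 and Tnnt2_2) and 0 to 3 over single libraries left out, the 3 being Myh7_2, Myh7b_2 and Tnnt2_2 without DNMT3a siRNA replicate 2. CpGs at an unadjusted p under 0.05 numbered 36, and 21 to 37 over single libraries left out, with 21 without negative siRNA replicate 1. The difference in the mean over regions ranged from -2.12 to -0.49 points as single libraries were left out. Over the same settings the group differences ranged from -3.90 to -1.48 points in sarcomere genes, 0.51 to 3.63 in natriuretic peptide genes, -1.66 to -0.24 in CDK inhibitor genes and -0.88 to -0.39 in transcription factor genes. Those of the starting-level classes ranged from -0.035 to 0.092 points under 2%, -1.83 to -0.63 from 2% to 20%, -3.67 to -0.71 from 20% to 80% and -2.87 to -1.75 at 80% and over. Differences of 15 of 26 regions kept their sign when any single library was left out, 12 lower and 3 higher.

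Of 39 CpGs named by the rule, 32 kept their sign under limma, DESeq2, the replicate block and each library left out. The log2 odds ratios of the other 7 changed sign when a library was left out, and the cause was not tested. Over single libraries left out, Camta1_1 offset 349 ranged from -0.41 (DNMT3a siRNA replicate 2 left out) to 1.499, and Camta1_2 offset 325 from -1.10 (the same library) to 3.09, with -0.42 in limma. Myh7b_1 offset 161 ranged from -0.36 to 0.12, NPPA_2 offset 183 from -0.78 to 0.077, NPPB_1 offset 59 from -0.050 to 0.27, Tnnc1_1 offset 114 from -0.022 to 0.28 and Tnnt2_1 offset 195 from -1.22 to 0.097. The opposite sign appeared there without negative siRNA replicate 1, 3, 2, 1 and 3, in that order. Leaving out DNMT3a siRNA replicate 3 had the same effect at Myh7b_1 and NPPA_2, replicate 1 at NPPB_1 and Tnnt2_1, and replicate 2 at NPPB_1 and Tnnc1_1.

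With the replicate number as a block, edgeR called 0 CpGs and 0 regions, with 26 CpGs and 3 regions at an unadjusted p under 0.05 and a mean difference of -1.06 points, as without it. Over 177 CpGs, the deviations of same-numbered libraries from their group means correlated at r = 0.34, -0.35 and -0.44, so the numbers were not taken as pairs. Between libraries of different number r ran from -0.50 to 0.76, the highest for negative siRNA replicate 2 with DNMT3a siRNA replicate 3. For negative siRNA replicate 3 it was 0.28 with DNMT3a siRNA replicate 2 and 0.21 with replicate 1. For negative siRNA replicate 1 it was 0.098 with DNMT3a siRNA replicate 2 and -0.40 with replicate 3. Whether libraries shared a source across numbers was not tested, and no test matched them in that way. If they did, leaving out a single library kept its counterpart in the comparison.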

Other observations

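Among CpGs with a negative siRNA mean of at least 2%, lower means predominated whichever base followed the CpG. With A next, 24 of 34 CpGs were lower with DNMT3a siRNA (median -1.74 points), with C 49 of 58 (-1.86), with G 34 of 46 (-1.99) and with T 30 of 39 (-1.82). These counts were not tested, and CpGs of an amplicon share reads.

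The region names Cdkn1B_2 and Cdkn1C_2 list the same cytosines over 376 bases with no reads, and this listing overlaps Cdkn1B_1 by 158 bases. The wide spread of Myh7b_1 offset 145 extended to the DNMT3b siRNA libraries, at 19.3%, 1.73% and 1.07%.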
